A study of Schizosaccharomyces pombe with 9 samples.

Results

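The transcriptome described here is that of wild-type (WT) fission yeast, Schizosaccharomyces pombe, taken as a baseline from 3 of the 9 libraries of a study of a cancer-associated change in histone H2B. The other libraries come from the E112K strain and from the E112K clr6-1 strain, and no value of theirs is used below. All 3 WT libraries carry the genotype label WT and the source label whole cell. Total RNA was extracted with Trizol, and messenger RNA was then selected with oligo(dT). The labels give no mating type, medium, temperature or growth phase, and they do not say whether the replicates came from separate cultures, so the spread between WT-1, WT-2 and WT-3 may be technical. All 3 libraries are members, and the rows ranked are the 5212 genes of the deposited table, of which 5136 are annotated genes and 76 are transcripts assembled by the authors.

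A yeast growing on glucose puts a large part of its messenger RNA into making protein and fermenting sugar. Ribosomal protein genes, translation factors and the enzymes of glycolysis are known for very abundant transcripts, while mating, meiotic and sporulation genes are kept nearly silent until nutrients run out. In fission yeast, genes close to the chromosome ends and the mating-type cassettes that serve as spare copies are packed in heterochromatin, and neighbouring genes often overlap head to head or tail to tail on opposite strands.

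The libraries held 19597394 counts in WT-1, 17795867 in WT-2 and 18086600 in WT-3. FPKM, the authors' fragment value per kilobase of transcript scaled for depth, is the scale for comparing different genes. CPM, the count scaled to the library total with TMM factors, is the scale for comparing the libraries within a gene. The libraries did not repeat each other: the chi-square per degree of freedom over genes was 2.96 between WT-1 and WT-2, 8.41 between WT-1 and WT-3, and 9.54 between WT-2 and WT-3. WT-3 therefore stood farthest from the other libraries, and results that turn on it are given with that in view.

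The genotype label was set against genes that mark the strain and the state of the cells. The level of htb1, the only H2B gene of this yeast, was 1294 FPKM in WT-1, 1304 FPKM in WT-2 and 1329 FPKM in WT-3, and that of clr6, a histone deacetylase, was 88.6, 96.0 and 96.0 FPKM. Neither level can show whether a gene carries a mutation. Marker genes of laboratory strains were transcribed except ura4: leu1, of leucine synthesis, had 531, 534 and 558 FPKM, ade6, of adenine synthesis, had 115.1, 114.4 and 112.3 FPKM, his3 had 262, 258 and 266 FPKM, and lys1 had 124, 123 and 133 FPKM. The table lists ura4, the orotidine phosphate decarboxylase of uracil synthesis, at 0 counts in WT-1, WT-2 and WT-3.

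Markers of meiosis were low, while some markers of starvation and stress were above the median gene. All 10 meiotic markers in the table lay under the median of all annotated genes, with summed levels of 106, 110 and 113 FPKM. Of 6 markers of starved or stationary cells, 5 lay under that median, and their summed levels were 154, 154 and 157 FPKM. The exception there was isp6, a vacuolar protease, at 85.6 ± 1.49 FPKM (SD, n = 3, as for every ± in this account). Of 6 heat and oxidative stress markers, 3 lay under the median, and the sum of 895, 929 and 894 FPKM was carried mainly by gst2, a glutathione S-transferase at 429 ± 24.5 FPKM, hsp9 at 188 ± 15.2 FPKM and gpx1, a peroxidase at 180 ± 10.5 FPKM. In bulk RNA, fewer cells of a kind and less RNA per cell cannot be told apart.

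Transcript levels covered a wide range with a narrow middle. The median annotated gene had 48.0 FPKM in WT-1, 48.4 FPKM in WT-2 and 47.0 FPKM in WT-3. Over the means of the 3 libraries, the middle 50% of annotated genes lay between 25.7 and 92.1 FPKM, a 3.59-fold range, and the 5th and 95th percentiles were 3.47 and 483 FPKM. The highest gene stood 125-fold above the median. Of all rows, 5025 had a mean of at least 1 FPKM (96.4%).

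Most genes sat in the middle class, while a small class held a large part of the messenger RNA. Between 10 and 100 FPKM lay 3510 genes, which are 67.3% of the table and held 33.9% of the counts. Between 100 and 1000 FPKM lay 1046 genes with 42.1% of the counts. At 1000 FPKM or above lay only 124 genes, 2.38% of the table, with 23.6% of the counts. At the other end, the 345 genes between 1 and 10 FPKM held 0.379% of the counts. Ranked by counts, 485 genes held 50% of them and 2789 genes held 90%.

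**Figure D1:**
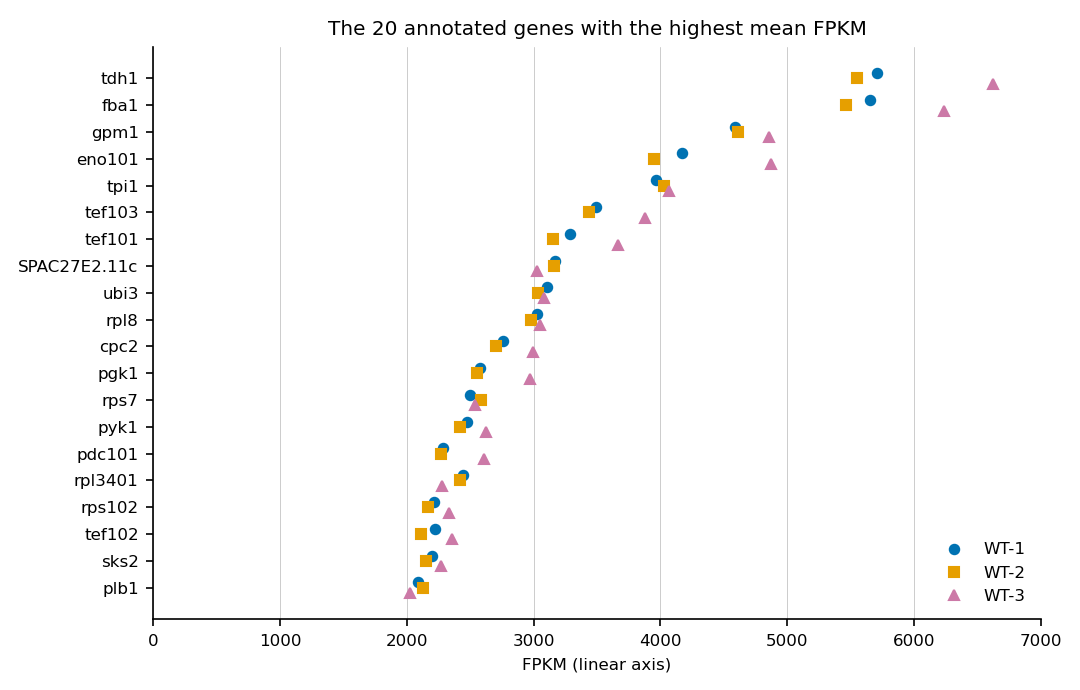
FPKM (linear axis) of the 20 annotated genes with the highest mean level, with circles for WT-1, squares for WT-2 and triangles for WT-3. Glycolytic genes fill the first 5 places, and in each of these 5 genes the WT-3 triangle lies to the right of the other points.

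On the deposited FPKM scale the highest transcripts were those of glycolysis. The gene tdh1, which encodes glyceraldehyde-3-phosphate dehydrogenase, stood first at 5711 FPKM in WT-1, 5552 FPKM in WT-2 and 6625 FPKM in WT-3 (mean 5963 ± 579). The aldolase gene fba1 came next at 5651, 5462 and 6240 FPKM. It was under tdh1 in each library, by less than the SD of either gene over the libraries. Phosphoglycerate mutase (gpm1) had 4591, 4612 and 4856 FPKM, enolase (eno101) had 4170, 3952 and 4871 FPKM, and triosephosphate isomerase (tpi1) had 3968, 4033 and 4070 FPKM. The enolase range reaches over those of gpm1 and tpi1, and its place relative to each changed between libraries, while all values of gpm1 lie above those of tpi1. Further down the list stood phosphoglycerate kinase (pgk1) at 2576, 2550 and 2975 FPKM, pyruvate kinase (pyk1) at 2473, 2416 and 2623 FPKM, and pyruvate decarboxylase (pdc101), the first enzyme of alcoholic fermentation, at 2283, 2272 and 2609 FPKM.

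The rest of the first 20 were mostly genes of protein synthesis. All 3 genes of elongation factor EF-1 alpha, which brings aminoacyl-tRNA to the ribosome, were there: tef103 at 3605 ± 241 FPKM, tef101 at 3370 ± 265 FPKM and tef102 at 2232 ± 123 FPKM. These copies are nearly identical in function and sequence, so the split of reads among them is uncertain and their sum is the firmer quantity. Ribosomal proteins were represented by ubi3, a fusion of ubiquitin with a ribosomal protein, at 3074 ± 34.4 FPKM, and by rpl8, rps7, rpl3401 and rps102. The RACK1 protein of the ribosome, encoded by cpc2, had 2820 ± 156 FPKM, and the ribosome-associated Hsp70 chaperone sks2 had 2205 ± 60.6 FPKM. The remaining entries were plb1, a phospholipase B, at 2080 ± 50.8 FPKM, and SPAC27E2.11c, a protein known only from Schizosaccharomyces, at 3169, 3160 and 3029 FPKM. The length implied by the deposited values of SPAC27E2.11c was 6.09 times the reference length, so its rank depends on the authors' gene model. If all its counts lay within the reference length, its level would be 18997 FPKM, above that of tdh1. Whether they do was not tested, so its place under the reference model is not known. Among 4825 genes with both lengths the median ratio was 1.00, 71.7% lay within 10% of the reference, and 51 had a model at least 2 times as long. The 20 genes with the most counts took 10.24% of the counts in WT-1, 10.08% in WT-2 and 10.95% in WT-3 (mean 10.4 ± 0.466%).

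**Figure D2:**
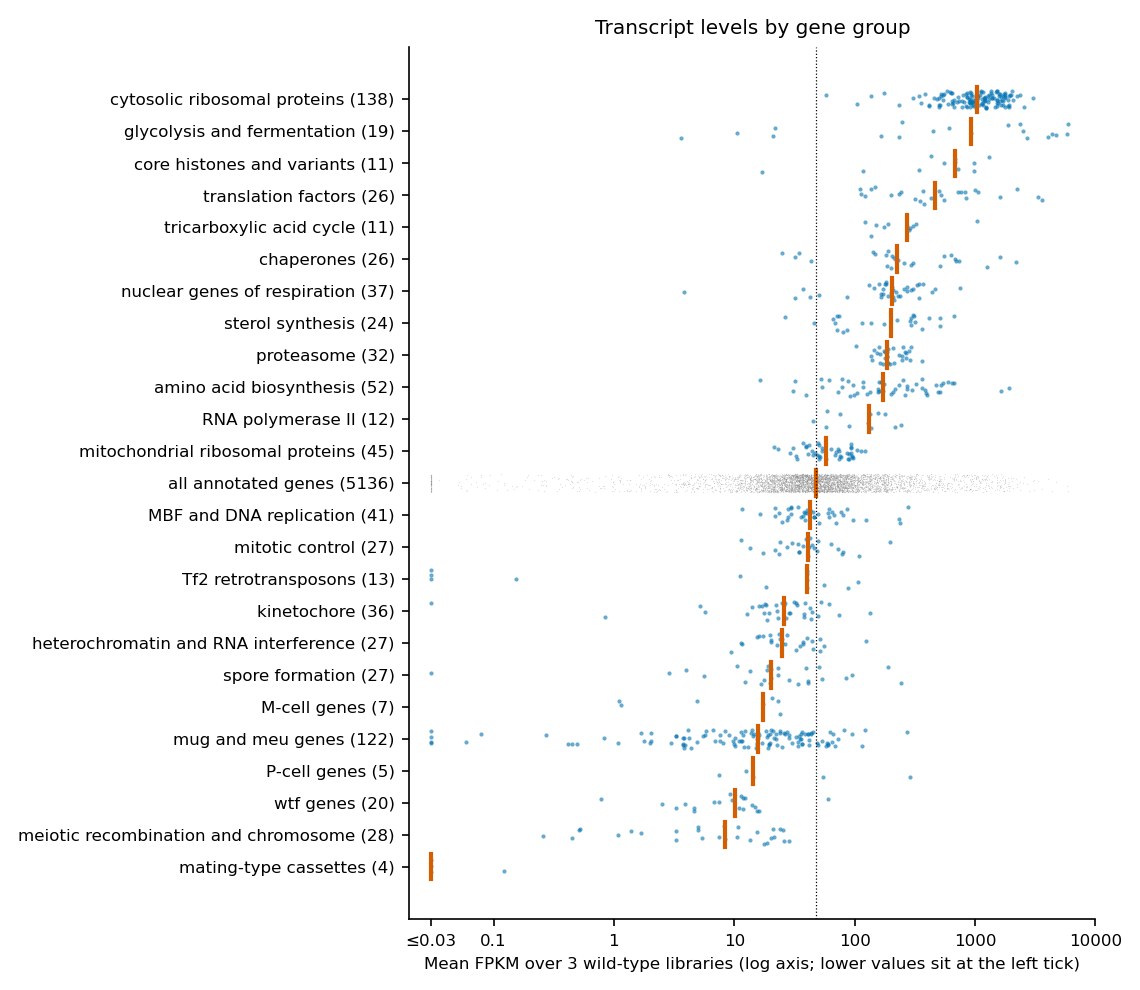
FPKM of the members of selected gene groups and of all annotated genes (logarithmic axis, number of genes in parentheses), 1 point for each gene at its mean over WT-1, WT-2 and WT-3, with the median of each group as a vertical bar and that of all annotated genes as a dotted line. The groups run from cytosolic ribosomal proteins (median 1039 FPKM) to the mating-type cassettes (mat1 and mat3 genes, median 0). Genes at or below 0.03 FPKM are drawn at the left tick.

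Glycolysis and fermentation had the second highest median of the 45 gene groups set out, 933 FPKM over 19 genes against 47.7 FPKM over all annotated genes. Of these genes 14 lay in the top decile of levels, which by construction holds 10% of annotated genes. The group took 5.58% of the counts in WT-1, 5.47% in WT-2 and 6.17% in WT-3. Within the pathway the levels per length differed by enzyme: alcohol dehydrogenase adh1 had 1874 ± 114 FPKM, glucose-6-phosphate isomerase pgi1 had 933 ± 35.4 FPKM, phosphofructokinase pfk1 had 612 ± 17.0 FPKM, and the hexokinases hxk2 and hxk1 had 445 ± 4.58 and 236 ± 0.363 FPKM. The main genes of the lower part of the pathway, from aldolase to pyruvate decarboxylase, thus stood above those of the first steps.

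For several enzymes with more than 1 gene the levels of the genes were far apart, unlike those of the hexokinases. The level of tdh1 was 35.9-fold that of gpd3, its second gene, which had 149, 164 and 185 FPKM. The level of eno101 was 205-fold that of eno102 (20.1, 22.1 and 21.2 FPKM). The level of pdc101 was 657-fold that of pdc102 (3.65, 3.20 and 4.05 FPKM), with pdc201 at 10.5 ± 0.432 FPKM and pdc202 at 21.9, 22.9 and 20.5 FPKM. Hexose transporters spread widely too: ght5, the high-affinity glucose transporter, had 1384, 1386 and 1392 FPKM and ght8 had 558 ± 25.7 FPKM, while ght3 had 2.38 ± 0.141 FPKM and ght7 had 1.012, 1.497 and 1.473 FPKM. The ratio of ght5 to ght7 was 1045. Of the proton pumps of the plasma membrane, pma1 had 1080, 1082 and 1017 FPKM and pma2 had 13.6, 13.4 and 14.4 FPKM, a ratio of 76.8. Some genes that glucose represses in this yeast were low. The gluconeogenic enzyme gene fbp1 had 16.7 ± 0.645 FPKM, the invertase gene inv1 had 19.8 ± 0.648 FPKM, and gld1, a glycerol dehydrogenase, had 3.02 ± 0.257 FPKM. The whole group of hexose transport and glucose-repressed genes (15 genes) had a median of 29.8 FPKM. Of these genes 6 lay above the median of all genes and 2 in the top decile. The medium is not given, and these levels do not tell it.

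The 138 cytosolic ribosomal protein genes formed the highest group, with a median of 1039 FPKM. All 138 lay above the median of all annotated genes and 134 lay in the top decile. Together they took 11.5% of the counts in WT-1, 11.3% in WT-2 and 11.3% in WT-3. Their highest members were rpl8 at 3024, 2982 and 3051 FPKM, rps7 at 2501, 2588 and 2538 FPKM, rpl3401 at 2447, 2416 and 2278 FPKM, and rps102 at 2211, 2170 and 2335 FPKM. Their lowest were rpl1603 at 54.5, 61.0 and 58.0 FPKM, rpl3002 at 101.4, 108.3 and 101.7 FPKM, and rps1401 at 116, 168 and 125 FPKM. The lowest member thus stood 52.2-fold below the highest.

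Each ribosome holds 1 copy of most of its proteins, and in fission yeast many of these proteins are made from more than 1 gene. The genes fell into 21 families of 1 gene, 51 families of 2 genes and 5 families of 3 genes. In the 56 families of several genes the highest member exceeded the lowest by a median of 1.79-fold, by over 2-fold in 22 families and by over 5-fold in 5. The widest family was rpl16, where rpl1602 had 1378 ± 7.70 FPKM and rpl1603 had 57.8 ± 3.23 FPKM, a ratio of 23.8. It was followed by rpl34 (rpl3401 at 2380 ± 90.2 and rpl3402 at 177 ± 6.08 FPKM, 13.5-fold), rpl30 (12.6-fold), rps14 (rps1402 at 1299 ± 22.8 and rps1401 at 136 ± 27.5 FPKM, 9.52-fold) and rpl1 (5.12-fold). The most even family was rpl24, at 1.03-fold. Paralogues that are nearly identical share reads, so these ratios carry the uncertainty of how the authors' counting split them, and both rpl1603 and rps1401 lie wholly inside another gene of the reference annotation. Summed over a family, the levels ran from 456 to 3489 FPKM, against 57.8 to 3019 FPKM for single genes. The medians of the sums rose with the number of genes. They were 1737 FPKM for families of 1 gene, 2106 FPKM for families of 2 genes and 2900 FPKM for families of 3 genes.

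Promoters were read from the RefSeq assembly ASM294v3 for 5108 annotated genes, as the 250 bases before and the 50 bases after the start of the annotated transcript. They are shown here because some gene groups hold short motifs more often than promoters at large. Known from fission yeast work are the HomolD box of ribosomal protein genes (letters searched: CAGTCAC), the HomolE box often found beside it (CCCTACC), the AACCCT box of histone genes (AACCCT), the TATA box (TATAAA), the MluI cell-cycle box (ACGCGT) and the TR box bound by the mating factor Ste11 (CTTTGTT). Both strands were searched, and the AACCCT and CCCTACC motifs can share letters. The CRE core motif and the letters CCAAT were searched as well, and their shares are not set out here. A match is a description of the letters and is no evidence that a factor binds. The 200 bases before the transcript start are printed 5′ to 3′ on the strand of the gene, with the motif named beside each gene in capitals (the reverse complement where the match is on the opposite strand). The first is the gene with the highest level (chromosome II, plus strand, TATA box), followed by the highest ribosomal protein gene (chromosome II, plus strand, HomolE on the opposite strand and then HomolD), and the highest and lowest genes of the rpl16 family (chromosome I, plus strand, and chromosome II, plus strand, HomolD).
tdh1: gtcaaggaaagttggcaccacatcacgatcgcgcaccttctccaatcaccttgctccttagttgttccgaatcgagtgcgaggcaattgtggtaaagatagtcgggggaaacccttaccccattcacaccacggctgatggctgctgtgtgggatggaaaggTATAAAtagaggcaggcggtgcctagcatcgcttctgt
rpl8: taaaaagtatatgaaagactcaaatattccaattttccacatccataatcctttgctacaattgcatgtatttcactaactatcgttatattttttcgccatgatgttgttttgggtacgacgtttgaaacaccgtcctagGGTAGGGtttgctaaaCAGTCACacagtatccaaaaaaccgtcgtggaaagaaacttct
rpl1602: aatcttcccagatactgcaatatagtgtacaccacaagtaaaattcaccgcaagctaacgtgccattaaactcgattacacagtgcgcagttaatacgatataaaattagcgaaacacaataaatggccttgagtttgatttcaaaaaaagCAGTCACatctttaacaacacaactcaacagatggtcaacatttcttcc
rpl1603: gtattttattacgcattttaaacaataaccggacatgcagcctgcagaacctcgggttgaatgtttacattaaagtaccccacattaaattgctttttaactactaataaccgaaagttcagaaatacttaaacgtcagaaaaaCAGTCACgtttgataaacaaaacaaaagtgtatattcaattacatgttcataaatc

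The HomolD letters were present in 126 of 138 ribosomal protein promoters, which is 91.3%, against 4.72% of all promoters. The first match lay at a median of 52 bases before the transcript start, with quartiles at 48 and 56 bases. In the promoters printed it lay 43 bases before the start of rpl8, 49 before that of rpl1602 and 56 before that of rpl1603, so both rpl16 genes printed hold the box although their levels differed 23.8-fold. The HomolE letters were in 35.5% of ribosomal protein promoters, against 2.23% of all promoters, and 41 ribosomal protein promoters held both boxes, with no overlap between them. The TATA letters were in 27.5% of ribosomal protein promoters, against 48.0% of all promoters. Among ribosomal protein genes the box did not separate levels: the median was 1039 FPKM over the 126 genes with it and 1005 FPKM over the 12 without it.

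Over all genes, HomolD was concentrated at the top of the ranking. It stood in 166 of the 511 promoters of the top decile of levels (32.5%), against 75 of the 4597 promoters below it (1.63%). Of those 166 genes 123 were ribosomal protein genes and 43 were not. The 43 are 11.4% of the 377 top-decile promoters outside the ribosomal protein genes. The median level was 686 FPKM over the 241 genes with the box and 46.2 FPKM over the genes without it, a difference that mostly restates the place of the ribosomal protein genes. None of the 45 mitochondrial ribosomal protein promoters held it.

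**Figure D3:**
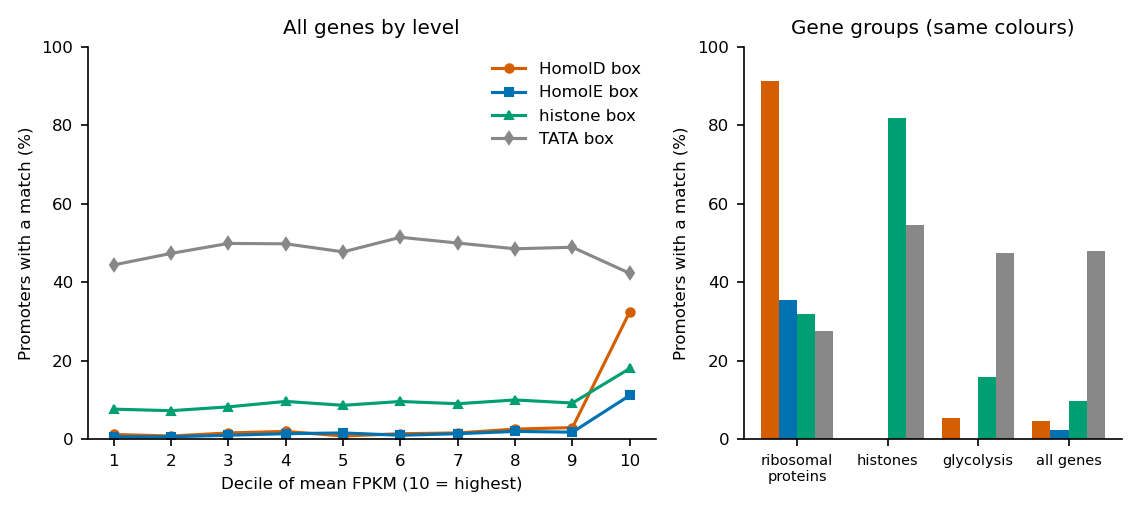
Share of promoters (%) with a match to HomolD (CAGTCAC), HomolE (CCCTACC), the histone box (AACCCT) or the TATA box (TATAAA), on the left by decile of mean FPKM (10 is the highest) and on the right in 3 gene groups and in all genes. The HomolD share is 32.5% in the highest decile and stays under 3% in the others, and it is 91.3% in ribosomal protein promoters.

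Translation factors were the next part of the protein synthesis machinery. Their 26 genes had a median of 466 FPKM, all of them lay above the median of annotated genes, and 20 lay in the top decile. After the EF-1 alpha genes came tef5, the beta subunit that recharges the factor, at 1575, 1559 and 1679 FPKM. The lowest members were subunits of initiation factor eIF2B, the guanine nucleotide exchange factor of initiation, with tif224 at 111, 114 and 110.5 FPKM and tif225 at 109, 111 and 116 FPKM. The 45 mitochondrial ribosomal protein genes stood far lower, with a median of 57.8 FPKM and a range set by mrp11 at 122 ± 7.24 FPKM and mrpl20 at 21.3 ± 0.695 FPKM.

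Among histones, genes were few and levels high. The 11 genes had a median of 676 FPKM, and 9 lay in the top decile. Summed over genes, H2A (2 genes) reached 1333, 1370 and 1271 FPKM, H2B (1 gene) 1294, 1304 and 1329 FPKM, H3 (3 genes) 2361, 2429 and 2322 FPKM, and H4 (3 genes) 1675, 1743 and 1595 FPKM. The sums of H2A and H2B overlapped, at 1324 ± 49.8 and 1309 ± 18.2 FPKM, so the single H2B gene carried about as much transcript per length as both H2A genes together. Among them hta2 had 981 ± 42.0 FPKM and hta1 had 343 ± 7.88 FPKM. The H2A.Z variant pht1, found at gene starts, had 117, 122 and 117 FPKM, and the centromeric H3 variant cnp1 had 16.6, 18.5 and 15.7 FPKM. Histone messages peak in S phase, and oligo(dT) selection measures only polyadenylated transcripts.

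The AACCCT letters were in 9 of the 11 histone promoters (81.8%), against 9.71% of all promoters. All 9 were the core histone genes, each with at least 2 matches, while the variants pht1 and cnp1 held none. Divergent histone genes can share the same region between them, so these matches are not all independent. The AACCCT letters were not confined to histone genes. They were also in 44 of 138 cytosolic ribosomal protein promoters (31.9%) and in 18.0% of the promoters of the top decile. The promoters of htb1 (chromosome III, plus strand, matches on the opposite strand 59 and 53 bases before the start) and hta2 (chromosome I, minus strand, matches 64 and 58 bases before the start) show the tandem pair in each orientation, in capitals.
htb1: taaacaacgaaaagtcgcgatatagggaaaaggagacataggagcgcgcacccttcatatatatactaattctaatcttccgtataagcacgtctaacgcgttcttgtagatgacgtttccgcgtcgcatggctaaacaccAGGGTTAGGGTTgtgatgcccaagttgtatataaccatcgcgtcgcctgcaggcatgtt
hta2: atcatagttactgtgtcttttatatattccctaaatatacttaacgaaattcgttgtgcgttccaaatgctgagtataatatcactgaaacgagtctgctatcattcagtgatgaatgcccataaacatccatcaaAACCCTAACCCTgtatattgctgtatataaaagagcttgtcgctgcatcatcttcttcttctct

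Genes of energy and building-block metabolism filled the next ranks. Nuclear genes of respiration (37 genes) had a median of 206 FPKM, with the ATP synthase subunit atp2 at 758 ± 6.61 FPKM at the top and the cytochrome oxidase subunit cox7 at 5.95, 1.87 and 3.69 FPKM at the bottom. The tricarboxylic acid cycle (11 genes) had a median of 271 FPKM, led by the malic enzyme gene mae2 at 1031 ± 23.3 FPKM. Purine synthesis (14 genes) had 253 FPKM, sterol synthesis (24 genes) 199 FPKM and amino acid biosynthesis (52 genes) 173 FPKM, and all but 4 of the 52 amino acid genes lay above the median of annotated genes. The highest of these were met26, the methionine synthase, at 1938, 1884 and 1986 FPKM, and ilv5, of branched-chain amino acid synthesis, at 1619, 1588 and 1711 FPKM. In sterol synthesis the methylsterol oxidase gene erg25 led with 664 ± 11.1 FPKM, and the regulator sre2 was lowest with 26.3 ± 0.455 FPKM.

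Mitochondrially encoded genes were nearly absent from the table's counts. All 7 described lay in the bottom decile, with a median of 0.198 FPKM, and atp6, a subunit of the ATP synthase, was highest with 19, 20 and 8 counts. The cytochrome oxidase gene cox1 had 15, 12 and 17 counts, and atp8 and atp9 were listed at 0. Mitochondrial transcripts of fission yeast are not selected by oligo(dT) as nuclear messages are, and the part of that step in these values was not tested.

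Proteasome genes lay close together, while chaperones ranged widely. All 32 proteasome genes lay above the median of annotated genes, between rpn6 at 102 ± 3.51 FPKM and rpn502 at 364 ± 14.2 FPKM, a range of 3.55-fold. Chaperones (26 genes) had a median of 226 FPKM but a wide range. At the top were the Hsp70 genes sks2 and ssa2 (1603 ± 109 FPKM) and hsp90 (1268 ± 59.5 FPKM). At the bottom were the heat-induced genes ssa1 (32.1 ± 0.936 FPKM), hsp104 (34.2 ± 2.29 FPKM) and hsp16 (22.1, 25.5 and 27.1 FPKM). Antioxidant enzymes (21 genes) had a median of 178 FPKM, from the peroxiredoxin tpx1 at 1248 ± 42.5 FPKM to the catalase ctt1 at 41.4 ± 1.22 FPKM. The thioredoxin trx1 had 790, 843 and 602 FPKM and was the lowest in WT-3. The core stress and trehalose genes (21 genes) had a median of 50.3 FPKM, close to that of all genes.

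Regulatory and chromosomal machinery lay near or under the median of all genes. The stress MAP kinase pathway (22 genes) had a median of 41.4 FPKM, with the kinase sty1 at 228 ± 3.75 FPKM. Mitotic control (27 genes) had 41.0 FPKM, from the mitotic cyclin cdc13 at 197, 197 and 192 FPKM to the cyclin puc1 at 11.5 ± 0.250 FPKM, with the cyclin-dependent kinase cdc2 at 80.4 ± 1.75 FPKM. DNA replication genes and targets of the MBF transcription factor (41 genes) had 42.3 FPKM, headed by the ribonucleotide reductase subunits cdc22 at 258, 292 and 291 FPKM and suc22 at 233, 239 and 239 FPKM and by the sliding clamp pcn1 at 236, 235 and 236 FPKM. Cytoskeletal genes were higher, with a median of 181 FPKM over 14 genes and actin (act1) at 1859, 1834 and 1874 FPKM.

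Chromatin and genome maintenance genes were lower still. Subunits of the Clr6 histone deacetylase complexes (18 genes) had a median of 39.5 FPKM, shelterin and telomerase (12 genes) 33.0 FPKM with none above the median of all genes, kinetochore genes (36 genes) 26.1 FPKM, DNA damage and repair (40 genes) 26.9 FPKM, and heterochromatin with RNA interference (27 genes) 24.8 FPKM. In the last group swi6, the HP1 protein, stood at 124 ± 0.669 FPKM and clr4, the H3 lysine 9 methyltransferase, at 11.3 ± 0.185 FPKM. In the repair group the 14-3-3 genes rad24 (1015 ± 2.06 FPKM) and rad25 (611 ± 12.0 FPKM) stood apart from the enzymes, such as rad3, the ATR checkpoint kinase, at 9.85 ± 0.251 FPKM. Of the DASH complex, which couples kinetochores to microtubules, duo1 had 5.45, 6.01 and 4.16 FPKM, spc34 had 0, 22 and 47 counts, and dam1 was listed at 0.

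Mating and meiotic genes formed the low end of the ranking. Genes of meiotic recombination and chromosome structure (28 genes) had a median of 8.31 FPKM, 17 of them lay in the bottom decile, and none lay above the median of all genes. The group's highest were genes with roles outside meiosis, rec14 of the Ski complex at 28.4 ± 1.61 FPKM and the helicase rqh1 at 25.9 ± 0.552 FPKM, and its lowest were the meiotic cyclin crs1 at 5, 8 and 9 counts and rec15, of meiotic double-strand breaks, at 3, 2 and 4 counts. The 122 mug and meu genes, named for being upregulated in meiosis, had a median of 15.7 FPKM, with 45 in the bottom decile and 17 above the median of all genes. Spore formation genes (27 genes) had 20.2 FPKM. There spo20 at 245 ± 6.30 FPKM and psy1 at 191 ± 10.6 FPKM, which act in secretion of growing cells too, stood above the rest. The wtf genes (20 genes), known as meiotic drivers, had 10.2 FPKM and 11 in the bottom decile. They are close copies of each other, so the split of reads among them is uncertain.

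Genes of pheromone signalling and meiotic entry (26 genes) had a median of 17.0 FPKM. Their general regulators were well expressed, with the RNA helicase ste13 at 379 ± 9.53 FPKM and the GTPase ras1 at 93.8 ± 5.19 FPKM. The meiotic switches mei2 and mei3, which starvation and pheromone turn on, had 3.66, 3.73 and 4.65 FPKM and 1.09, 1.08 and 0.865 FPKM, and ste11, the master regulator of mating, had 8.91 ± 0.233 FPKM. Of the cell-type genes, M-cell markers (9 in the table) summed to 89.0, 95.7 and 92.5 FPKM and P-cell markers (5 of 7 in the table) to 377, 380 and 374 FPKM. Most of the sum of the P-cell list was sxa1, an aspartic protease, at 288 ± 2.06 FPKM, followed by mam4 at 54.8 ± 4.70 FPKM. The gene mam4 is in that list as set but is not taken here as a P-cell gene. The P-cell and M-cell sums are therefore not to be compared. The other members were map4 at 14.3 ± 0.196 FPKM, map3 at 12.5 ± 0.713 FPKM and map2. Pheromone genes were lower in both sets: the M-factor genes mfm1, mfm2 and mfm3 had 15, 14 and 20 counts, 48, 48 and 31 counts, and 8, 4 and 9 counts, and the P-factor gene map2 had 7.69, 7.22 and 7.36 FPKM. Of the mating-type genes themselves, mat1-Mc had 2, 0 and 2 counts, and mat1-Mi, mat3-Mc and mat3-Mm were listed at 0. These values do not tell the mating type of the cells.

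Certain motifs were more frequent in some low groups than in promoters at large, and in some high groups too. Of the high groups, the MluI cell-cycle letters were in 3 of 11 histone promoters (27.3%). The TR letters were in 3 of 11 tricarboxylic acid cycle promoters (27.3%) and 3 of 14 cytoskeletal promoters (21.4%). The TR letters were in 6 of 7 M-cell promoters (85.7%), against 10.3% of all promoters, and the MluI cell-cycle letters were in 13 of 28 promoters of meiotic recombination genes (46.4%), against 3.25% of all promoters and 8 of 41 in the replication and MBF group. This did not extend to all low genes: the TR letters were in 1 of 5 promoters of the P-cell list, which includes mam4, and 1 of 20 wtf promoters. They were in 12.5% of the lowest decile of levels, against 10.96% of the highest, while the MluI letters were in 4.11% of the lowest decile, against 4.70% of the highest. The promoters of mfm1 (chromosome I, plus strand, match 79 bases before the start) and mfm2 (chromosome I, minus strand, match 78 bases before the start) are printed because these pheromone genes were almost silent here. Both matches lie on the opposite strand, so that the capitals read AACAAAG.
mfm1: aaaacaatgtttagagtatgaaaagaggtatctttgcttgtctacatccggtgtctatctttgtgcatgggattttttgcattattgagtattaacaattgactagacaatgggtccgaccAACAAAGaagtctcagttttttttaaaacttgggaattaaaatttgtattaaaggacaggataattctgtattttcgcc
mfm2: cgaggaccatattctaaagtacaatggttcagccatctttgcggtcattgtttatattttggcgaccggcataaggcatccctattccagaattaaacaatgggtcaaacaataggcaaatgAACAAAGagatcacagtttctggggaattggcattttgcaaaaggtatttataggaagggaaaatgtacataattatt

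The deposited Gene Ontology (GO) Process terms gave a wider frame. Of 2812 terms, 362 covered at least 10 genes of the table, and 197 of these had a median above that of all annotated genes. Terms share genes and are not independent. The highest were canonical glycolysis at 2504 FPKM (13 genes), cytoplasmic translational elongation at 1058 FPKM (25 genes), the glycolytic process at 933 FPKM (15 genes), cytoplasmic translation at 914 FPKM (166 genes), translational elongation at 885 FPKM (22 genes) and ribosomal small subunit assembly at 780 FPKM (20 genes). They were followed by the isoleucine biosynthetic process at 486 FPKM (10 genes), branched-chain amino acid biosynthesis at 472 FPKM (10 genes), translation at 413 FPKM (282 genes) and formation of the translation initiation complex at 372 FPKM (14 genes). The lowest was negative regulation of ascospore formation at 10.9 FPKM (21 genes), a term that holds wtf genes. Above it came pheromone-dependent signal transduction at 13.7 FPKM (14 genes), catabolism through the anaphase-promoting complex at 13.7 FPKM (15 genes), dynein-driven meiotic nuclear movement at 16.9 FPKM (17 genes), reciprocal meiotic recombination at 18.7 FPKM (31 genes), ascospore wall assembly at 19.5 FPKM (12 genes), mitotic sister chromatid biorientation at 20.1 FPKM (15 genes), sporulation at 20.8 FPKM (52 genes), the meiotic cell cycle at 22.0 FPKM (298 genes) and iron ion homeostasis at 22.6 FPKM (10 genes).

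Levels were also low towards the ends of chromosomes I and II, where heterochromatin is known to spread. The 62 genes within 50 kb of an end had a median of 2.64 FPKM and 25.8% of them were under 1 FPKM. The 62 genes between 50 and 100 kb had a median of 17.4 FPKM, the 641 genes between 100 and 500 kb had 49.1 FPKM, and the 3428 genes beyond 500 kb had 50.2 FPKM, with 2.22% under 1 FPKM. Chromosome III was kept apart, and its 916 genes had a median of 44.3 FPKM. These distances rest on the reference assembly, and gene families with near-identical copies are common at chromosome ends.

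The deposited count was 0 in all 3 libraries for 61 genes (1.17%), while 60 genes had a mean FPKM of 0. A count of 0 did not always go with an FPKM of 0, since dhd1 had 0 counts and 0.003 FPKM in WT-2. A sum of 3 counts over the libraries comes to 0.0541 CPM, which is the limit that a count of 0 allows for each of these genes and covers counting error only. A further 25 genes had 1 to 3 counts in total, and 87, 90 and 90 genes were at 0 in WT-1, WT-2 and WT-3. Of the silent genes, 13 are described as dubious, out of 76 such genes in the table, and 14 as specific to Schizosaccharomyces, out of 264.

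Silent genes were more frequent among those that lie wholly inside another gene than among those with no overlap. Of the 61 genes, 23 lie wholly inside another gene in the reference annotation, 11 overlap another gene in part, 23 overlap none and 4 are among the 27 annotated genes not found in the reference (14.8%). Silent genes make up 11.4% of the 201 genes that lie wholly inside another, against 0.785% of the 2931 genes with no overlap and 0.556% of the 1977 with a partial overlap. All 23 silent genes of the inside class lie on the strand opposite to their host. The 34 overlapping partners were transcribed at a median of 43.6 FPKM, from 0.374 to 108 FPKM. Among all 199 genes that lie inside another on the opposite strand the median was 21.7 FPKM, against 34.1 FPKM for their hosts, and 20.1% were under 1 FPKM, against 2.80% of genes with no overlap. The sources used here do not say whether the authors' counting used strand, so reads of a gene and of its antisense partner cannot be told apart.

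Several genes listed at 0 encode parts of central machinery. In heme synthesis hem14, protoporphyrinogen oxidase, was at 0 while hem13, which acts just before it, had 785 ± 6.61 FPKM, and hem14 lies inside lsh1, which had 95.7 ± 1.62 FPKM. The following were chosen after their values were seen: spt16, of the histone chaperone FACT, lies inside nop2 (70.8 ± 0.383 FPKM), and med11, of Mediator, is covered to 97.7% by pkp1. The kinetochore gene dam1 is covered to 26.0% by csr101 (78.7 ± 2.85 FPKM). Whether the cells lack these transcripts cannot be told from a 0 in the table, and an allotment of reads to the partner was not tested. Among these genes dam1 is the least covered by its partner. Silent genes of the described groups that lie inside another gene also include mfr1, a meiotic regulator, and mug108, mug112 and mug143.

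The silent genes with a symbol and no overlap were few and of mixed kinds. Among them were ura4, the mating-type genes mat1-Mi, mat3-Mc and mat3-Mm, and tlh1, a helicase gene at a chromosome end. The others were the retrotransposons Tf2-8 and Tf2-9, mug116, coa3, a cytochrome oxidase assembly factor, and new15, a mitochondrial ribosomal protein. The mat1-Mi, mat3 and Tf2 genes have near-identical copies, so a 0 can follow from how reads were shared. The same may hold for tlh1, since such copies are common at chromosome ends. Across the 13 Tf2 elements the deposited levels ran from 0 in 2 elements, over 2 counts in each library for Tf2-4, to 106, 110 and 104 FPKM for Tf2-2, with a median of 40.5 FPKM.

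The 76 assembled transcripts added little. They took 0.205 ± 0.0136% of the counts, 53 had at least 1 FPKM, and their median was 2.52 FPKM.

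The libraries were close to each other. Across 4747 genes the Pearson correlation of log2 CPM was 0.998 between WT-1 and WT-2, 0.997 between WT-1 and WT-3 and 0.997 between WT-2 and WT-3. These are correlations across genes, which are not replicates. The median absolute log2 difference was 0.04, 0.06 and 0.06 in the same pairs. Over the 4748 genes at a mean of at least 10 CPM, the coefficient of variation (CV, the SD over the mean of the libraries) had a median of 3.25%, with 5th and 95th percentiles of 0.791% and 9.39%. The SD expected from counting error alone, as a percentage of the mean, had a median of 2.25%. In 3352 genes the CV was above the value expected for that gene. A CV over 3 libraries scatters around that value, so some genes exceed it by chance. How many would do so was not computed. The common biological coefficient of variation fitted by edgeR was 0.0372. Without WT-3 it was 0.0237 and the median CV was 2.05%.

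**Figure D4:**
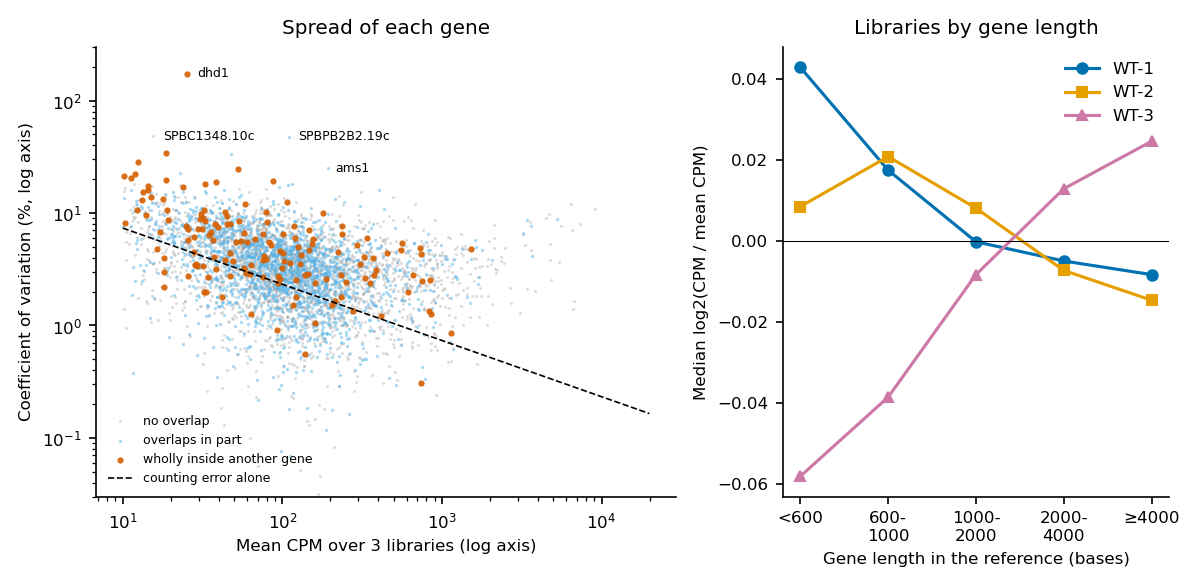
On the left, the coefficient of variation over WT-1, WT-2 and WT-3 (%, logarithmic axis) against mean CPM (logarithmic axis), 1 point for each gene at a mean of at least 10 CPM, coloured by overlap with other genes, with counting error as a dashed line. On the right, the median log2 deviation of each library from the gene's mean by length in the reference (bases): WT-3 runs from −0.06 in the shortest class to 0.02 in the longest, while WT-1 and WT-2 are higher in the shortest class than in the longest.

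Spread fell with level only down to a floor. The median CV was 6.29% in the 428 genes between 10 and 30 CPM (counting error 5.11%), 3.85% in the 1800 genes between 30 and 100 CPM (2.92%), 2.72% in the 1827 genes between 100 and 300 CPM (1.88%) and again 2.72% in the 693 genes at 300 CPM or above (0.992%). In the highest class the spread was thus mostly not counting error. WT-3 was the highest library in 28.3%, 29.8%, 42.3% and 56.4% of the genes of these classes, in the same order. It lay at one end of the 3 values in 76.6% of genes, against 59.5% for WT-1 and 63.9% for WT-2.

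Transcript length moved with this pattern. WT-3 was the lowest library in 67.8% of the 121 genes under 600 bases and the highest in 13.2% of them, while it was the lowest in 19.9% and the highest in 58.3% of the 331 genes of 4000 bases or more. The median deviation of WT-3 from the gene's mean was −0.06 on the log2 scale in the shortest class and 0.02 in the longest. Across 4727 genes the Spearman correlation of reference length with the deviation was 0.307 for WT-3, −0.163 for WT-1 and −0.231 for WT-2. The cause of this difference between the libraries was not tested.

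Gene groups differed in where WT-3 stood. Over 4731 annotated genes at 10 CPM or above WT-3 was the highest library in 1821 and the lowest in 1806. In glycolysis 15 of 18 genes at this level were highest in WT-3, by a median log2 deviation of 0.07, and in the tricarboxylic acid cycle 10 of 11 were. Among mitochondrial ribosomal protein genes 35 of 45 were lowest in WT-3, by a median of −0.05. Among cytosolic ribosomal protein genes 54 of 138 were highest and 56 lowest in WT-3, shares close to those of all genes, while 70 were highest in WT-1 and 69 lowest in WT-2. The reference lengths differ as well, with medians of 1719 bases in glycolysis, 2158 bases in the tricarboxylic acid cycle, 1033 bases in the mitochondrial and 680 bases in the cytosolic ribosomal protein genes, and the part of length in these shifts was not tested. Among GO terms the largest median CV was that of negative regulation of ascospore formation (7.91%), followed by amino acid transmembrane transport (5.87%), amino acid transport (5.79%), the ATP biosynthetic process (5.72%), spliceosomal snRNP assembly (5.71%), ATP synthesis coupled proton transport (5.39%), regulation of alternative splicing (5.31%) and chaperone-mediated protein folding (5.15%).

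Few genes varied by much. The highest library was at least 1.5 times the lowest in 11 of 4748 genes (0.232%) and at least 2 times in 3. There were 5 such genes at 1.5 times without WT-3, 7 without WT-1 and 76 among genes from 1 CPM. In 8 of the 11 WT-3 was the highest. With all libraries the share was 4.05% of 148 genes that lie wholly inside another gene, 4 of 1910 with a partial overlap and 1 of 2670 with none. Of the 15 genes with the largest CV, 13 overlap another gene and 9 lie wholly inside one.

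**Figure D5:**
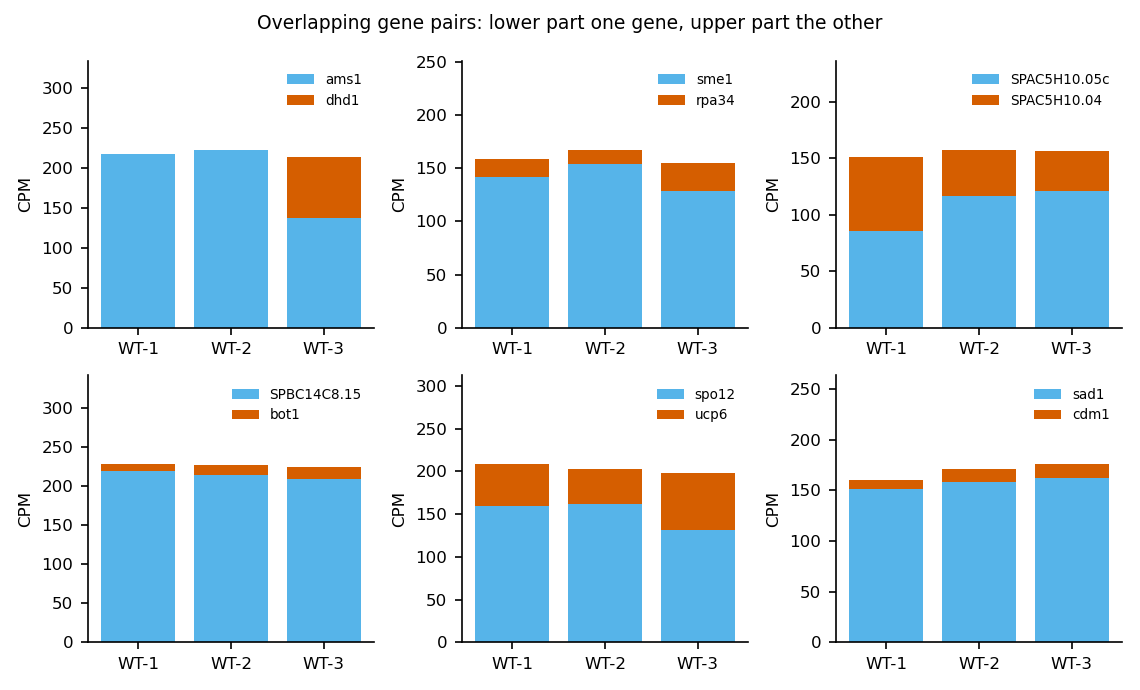
CPM in WT-1, WT-2 and WT-3 of 6 overlapping pairs as stacked bars, with the variable gene on top of its partner, so that the height of a bar is the sum of the pair. For dhd1 and ams1 the variable gene has 76.3 CPM in WT-3, where the partner is lowest, and the sum stays between 213 and 223 CPM.

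The largest CV, 173%, belonged to dhd1, a predicted D-xylose dehydrogenase gene, with 1, 0 and 1364 counts in WT-1, WT-2 and WT-3. It lies inside ams1, the alpha-mannosidase gene, on the opposite strand, and ams1 had 4276, 3999 and 2452 counts. The sum of the pair was 218, 223 and 213 CPM, a CV of 2.12%, against 24.96% for ams1. So the gene with counts almost solely in WT-3 and the partner that was lowest in WT-3 added up to nearly the same total in each library.

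Of 11 opposite-strand pairs chosen among the genes with the largest CV, 9 had a sum with a lower CV than either gene alone. The share over all overlapping pairs was not computed, and a sum of genes can vary less than its parts in any case. The 9 therefore describe these pairs only. Left out of the 11 was SPBPB2B2.19c with its opposite-strand partner SPBPB2B2.18. The sum of that pair had a CV of 47.2%, against 47.7% for SPBPB2B2.19c. The polymerase I subunit gene rpa34 had 338, 236 and 458 counts and sme1, of the spliceosome, had 2783, 2768 and 2304 counts, and their sum had a CV of 4.05%, against 34.1% for rpa34 and 8.93% for sme1. The NADPH dehydrogenase gene SPAC5H10.04 had 1287, 741 and 637 counts and SPAC5H10.05c had 1688, 2092 and 2163 counts, with a CV of 2.11% for the sum, 33.5% for the first gene and 17.6% for its partner. For bot1, a mitochondrial ribosomal protein gene, and SPBC14C8.15, a lipase gene, the CV was 0.792% for the sum, 28.2% for bot1 and 2.40% for the partner. For meu27 and the checkpoint kinase gene chk1 it was 0.332% for the sum, 21.4% for meu27 and 3.33% for chk1. In the other 2 of the 11 pairs the sum varied more than the partner. For rps1401, the low ribosomal protein gene, and aar2 the CV was 6.89% for the sum, 19.4% for rps1401 and 2.81% for aar2. For cdm1, of DNA polymerase delta, and sad1, of the spindle pole body, both were lowest in WT-1 and highest in WT-3, and the CV was 4.74% for the sum, 22.3% for cdm1 and 3.44% for sad1. In most pairs the partner had several times more counts than the variable gene, and an allotment of reads between the genes was not tested.

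A pair of the most variable genes had no partner of comparable level and lay near a chromosome end. SPBC1348.10c, a predicted phospholipase gene, had 453, 148 and 270 counts and overlaps no gene. SPBPB2B2.19c, of a family of membrane proteins specific to this yeast, had 2084, 1068 and 2936 counts, and the gene it overlaps by 0.929% of its length, SPBPB2B2.18, had 28, 25 and 27 counts. Both lie within 50 kb of an end of chromosome II, and both were lowest in WT-2. In that class 2 of 17 genes at 10 CPM or above varied by 1.5-fold, against 7 of 3213 genes beyond 500 kb.

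At the other end, a few genes hardly moved. The nuclear transport receptor gene kap111 had 3290, 3011 and 2996 counts and a CV of 0.0314%, the nicotinate phosphoribosyltransferase gene npt1 had 3357, 3072 and 3056 counts and a CV of 0.0457%, and the phosphatidylserine synthase gene pps1 had 1922, 1757 and 1752 counts and a CV of 0.0765%. These values lie under the counting error of such counts, so 3 libraries do not rank them as steadier than their neighbours. The common reference gene act1 had a CV of 2.12% and htb1 one of 2.32%.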

How the data were processed

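Oligo(dT)-selected RNA of 3 WT libraries was analysed without reference to the mutant libraries. Per the submitters' processing notes, the tools were Bowtie2, DESeq2, fastp, HISAT2, RSEM and StringTie, with no version or role. Genome build, annotation and the strand of counting were not given in the sources used here. As the file headers show, the authors deposited a count per gene and library, in whole numbers (if from RSEM, estimates rounded before deposit), and the FPKM of each gene, which was in proportion to its counts within 9.92% over 4865 genes. The deposited log2 fold changes and the p-value and FDR columns compare WT with a mutant and were not used. No row was a total or an unassigned class.

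Counts were scaled by TMM (factors from 0.989 to 1.01) and the common dispersion was fitted with an intercept alone in edgeR 4.0.16 (R 4.3.3), with the filterByExpr filter. No test between groups was made. On simulated data of 5212 genes with a true biological coefficient of variation of 0.05, the fit gave 0.0502, and genes set 1.5-fold and 2-fold apart in 1 library were called variable in 60% and 100% of cases. Genes were matched to the ASM294v3 annotation for overlaps, distances and promoters (5109 of 5136 matched). No coordinates are printed, since the build of the files is not named. The planned coding lengths were taken from the annotation's coding sequences.

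Named genes are the 20 highest by FPKM, up to 4 highest and 3 lowest of each group, the 15 largest and 6 smallest CVs, silent genes of a group or with a symbol and no overlap, fixed markers, the extremes of ribosomal protein families and the extreme GO terms. Other names are values beside these, chosen after their values were seen. Members and groups were chosen with earlier results of these data known, and a few group members were dropped after values were seen because the deposited description was that of another gene. Alternatives were other scalings, filters, cutoffs and each library left out.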

Additional observations from a re-analysis of the deposited data

How the results depend on the processing

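Of 48 alternative settings over 8 results, 38 were labelled close to the value reported. The label was wide, since 86 silent genes counted as close to 61. The detected genes, 5025 as reported, had little room to move and ran from 5006 to 5052. The 38 is therefore no measure of how firm each result is. The silent genes numbered 61, and 27 without genes that overlap another, a setting chosen after seeing the data; the other settings gave 61 to 86. The biological coefficient of variation was 0.0372, against 0.0206 as the median gene-wise value of DESeq2 and 0.0237 to 0.0440 with a library left out, the lowest without WT-3. The median CV was 3.25%, and 2.05% to 3.04% with a library left out, the lowest without WT-3. Genes varying by 1.5-fold numbered 11, and 76 from 1 CPM, 3 from 50 CPM, 5 to 8 with a library left out (5 without WT-3, 7 without WT-1) and 1 without overlapping genes, also chosen after seeing the data. Of those 5, 4 were among the 11. GO terms above the median numbered 197 of 362, and 415 of 782 from 5 genes. The named extremes depended on the cutoff: from 5 genes, 6 of the 10 highest terms and 2 of the 10 lowest kept such a place. Under log2 means 10 of the highest and 7 of the lowest did. Of 45 groups, amino acid and nitrogen permeases alone (median 48.9 FPKM) changed side of the all-gene median, under log2 means, coding length and without WT-3. No paired analysis was possible because the results come from no test. With 3 libraries, the spread of a single gene is poorly known, and values under about 10 CPM are limited by counting. A 0 in an overlapping or repeated gene may depend on how reads were allotted, which was not tested.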
